A study of Mus musculus with 10 samples.

Results

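The baseline mRNA profile of mouse myocardium was described from the 5 libraries labelled NPRA+/+ (228, 230, 242, 243 and 255) of a 10-library series. The members were chosen by that genotype label alone, and no measured value entered the choice. The series set mice with a deletion of natriuretic peptide receptor A (NPRA, the product of Npr1) restricted to the myocardium against littermates that kept the receptor. All animals were C57BL/6, the tissue of every library was labelled myocardium, and the NPRA+/+ animals carried the tag wild type. The sources used here do not give age, sex, the chamber sampled, the Cre driver of the deletion, or whether the controls carried floxed alleles. The labels do not say that the 5 numbers are 5 animals, so the spread between libraries may be partly technical. The 5 NPRA-/- libraries are used here only to ask whether a gene's spread between libraries was alike in a second set, and no level is compared between genotypes.

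The values describe polyadenylated RNA, so each is the level of a messenger and not of a protein. A cardiomyocyte is filled by sarcomeres, the repeating units of myosin and actin filaments that shorten in each beat, and by mitochondria, which make the ATP that the beat consumes. The adult ventricle burns mainly fatty acids, releases and takes back calcium through its sarcoplasmic reticulum in every cycle, and uses Myh6, the alpha myosin heavy chain, as its main myosin in the mouse. Endothelial cells, fibroblasts, mural cells, macrophages and blood share the tissue with the myocytes, and in bulk RNA fewer cells of a type cannot be told apart from less RNA per cell.

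The table held 22157 transcripts of 11777 genes, each with a mean of at least 0.5 in at least 1 genotype group, which is how the listed transcripts had been selected. Values were taken as FPKM, fragments scaled by transcript length and library size, and a gene's level is the sum over its listed transcripts. The sums per library ran from 430735 to 445278, the depth is unknown, and each error is the SD over these libraries (n = 5). Over genes with a mean of at least 10 FPKM, Spearman's rho between pairs of these libraries ran from 0.943 to 0.955. Below, values of single libraries are in the order 228, 230, 242, 243 and 255.

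The 3 genes that mark cardiomyocytes were near the top of every library. Myh6 (ENSMUSG00000040752, chr14:54941921-54966927, minus strand, GRCm38) stood at 8387, 7637, 7638, 7059 and 8185 FPKM. Tnnt2 (ENSMUSG00000026414, chr1:135836354-135852260, plus strand), cardiac troponin T, which ties the calcium switch to the thin filament, stood at 7834, 7500, 7778, 6925 and 7237 FPKM. Actc1 (ENSMUSG00000068614, chr2:114047282-114053548, minus strand), the cardiac actin of the thin filament, stood at 4138, 3748, 3392, 3505 and 3151 FPKM. Library 228 was highest in all 3, and the lowest library was 243 for Myh6 and Tnnt2 and 255 for Actc1. The 10 listed cardiomyocyte markers summed to 25691 to 28289 FPKM per library, against 1506 to 1739 for 10 endothelial, 756 to 959 for 10 fibroblast and 251 to 287 for 10 macrophage markers. Most of the endothelial sum came from Fabp4 and Cd36, at means of 724 and 543 FPKM, which also handle fatty acids. The place of the endothelial list above the fibroblast list rests on these genes. The lists for T and B cells, lung and thymus had no member among the transcripts analysed here. Npr1, the receptor that these animals kept, was at 4.87, 5.05, 4.30, 4.46 and 4.71 FPKM, rank 6959 of the 11777 genes.

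The promoters of Myh6 and Actc1 are shown because these genes mark the tissue and are among its most abundant nuclear messengers. Windows of 300 bases, 250 before and 50 after the RefSeq start (GRCm38.p6), are given 5′ to 3′ on the gene's strand, with capitals at matches on either strand to TATAAA (the TATA box), to CATTCC (the MCAT element), to GGGCGG (the GC box), the CArG box and the MEF2 site. No matches to different motifs overlapped in the 7 windows shown here and further on.
Myh6, chr14:54966558-54966857, minus strand: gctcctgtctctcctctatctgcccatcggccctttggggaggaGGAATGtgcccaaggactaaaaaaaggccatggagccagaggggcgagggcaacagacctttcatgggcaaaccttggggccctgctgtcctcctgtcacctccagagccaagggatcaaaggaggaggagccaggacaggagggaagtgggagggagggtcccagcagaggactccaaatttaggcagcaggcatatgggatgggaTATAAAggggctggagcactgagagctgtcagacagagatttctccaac
Actc1, chr2:114052826-114053125, minus strand: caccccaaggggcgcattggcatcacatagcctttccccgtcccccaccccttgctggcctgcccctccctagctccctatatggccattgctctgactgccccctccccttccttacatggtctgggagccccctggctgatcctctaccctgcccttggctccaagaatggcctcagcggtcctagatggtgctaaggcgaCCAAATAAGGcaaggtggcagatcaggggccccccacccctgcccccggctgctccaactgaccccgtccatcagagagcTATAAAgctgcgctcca
The Myh6 window held TATAAA and, on the other strand, CATTCC, and the Actc1 window held TATAAA and a CArG box, the element bound by serum response factor. Both TATAAA matches lay past the RefSeq start, at bases 252 to 257 in Myh6 and 284 to 289 in Actc1. The RefSeq start lay 34 bases from that of Myh6-201 and 12 bases from that of Actc1-201. For Tnnt2 the nearest window started 3886 bases from Tnnt2-206 and is not shown. Windows matched 25 of the 28 genes of the sarcomere class described below. CATTCC was present in 48.0% of these genes, 14.2% of 9186 matched listed genes and 16.6% of all 27025 genes with a window. A CArG box was present in 5 of the 25 sarcomere genes, and in 1.68% and 1.81% of the larger sets. GGGCGG was present in 28.0%, 69.3% and 38.2% of the same 3 sets. The nuclear respiratory chain genes, of which 68 of 87 matched, held a CArG box in 0 and CATTCC in 10.3%. These are counts of letters in a window and not of bound sites.

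Messengers encoded by the mitochondrial genome headed the profile. All 13 were listed and together made up 27.8% ± 0.646 of the summed FPKM (26.8% to 28.6%). mt-Co1, the catalytic subunit of cytochrome c oxidase, ranked first at 19783 ± 607 FPKM, followed by mt-Cytb of complex III at 16949 ± 469 and mt-Nd1 of complex I at 12594 ± 1349. mt-Nd1 was lowest in library 255, at 10306 FPKM, while the other 4 libraries lay at 12502 to 13704. The complex I subunit mt-Nd5 stood at 10114 ± 125 FPKM, a coefficient of variation (CV, SD over mean) of 1.24%. mt-Nd6, the only one of these messengers encoded on the light strand, stood at 226 ± 13.2 FPKM and ranked 223. mt-Atp8 overlaps mt-Atp6, and mt-Nd4l overlaps mt-Nd4, on shared bicistronic RNAs, so their separate values are uncertain. The libraries were made by oligo(dT) selection, and its part in these levels was not tested.

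Below them, sarcomere genes took 8 of the first 12 nuclear places. Myh6 and Tnnt2 were followed by Tpm1 (tropomyosin, which covers the myosin sites on actin) at 4737 ± 112 FPKM, Mb (myoglobin, the oxygen store) at 4527 ± 265, Actc1 at 3587 ± 376 and Tnni3 (cardiac troponin I, the inhibitory subunit) at 3283 ± 65.8. Next came the ventricular myosin light chain Myl2 at 2324 ± 198, Cox6a2 (the muscle form of a cytochrome c oxidase subunit) at 1919 ± 87.4, and the essential light chain Myl3 at 1886 ± 117. Slc25a4, the ADP/ATP carrier of the inner membrane, Atp5b, the catalytic subunit of ATP synthase, and Tnnc1, troponin C, stood at 1689 ± 85.4, 1624 ± 67.1 and 1526 ± 149 FPKM. The order held at some steps and not at others. The ranges did not overlap between Tnnt2 and Tpm1, between Mb and Actc1, between Tnni3 and Myl2, or between Myl2 and Cox6a2. They did overlap between Myh6 and Tnnt2, with Myh6 higher in 4 of 5 libraries (with incomplete coding sequences left out, Myh6 fell to 4649 FPKM, below Tnnt2 at 7348 and Tpm1 at 4737), and between Tpm1 and Mb, with Tpm1 higher in 3 of 5. Of the 25 leading nuclear genes, 22 were among the first 25 in every library. Csrp3, a muscle LIM protein of the Z-disc, moved most, between nuclear ranks 17 and 45.

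**Figure D1:**
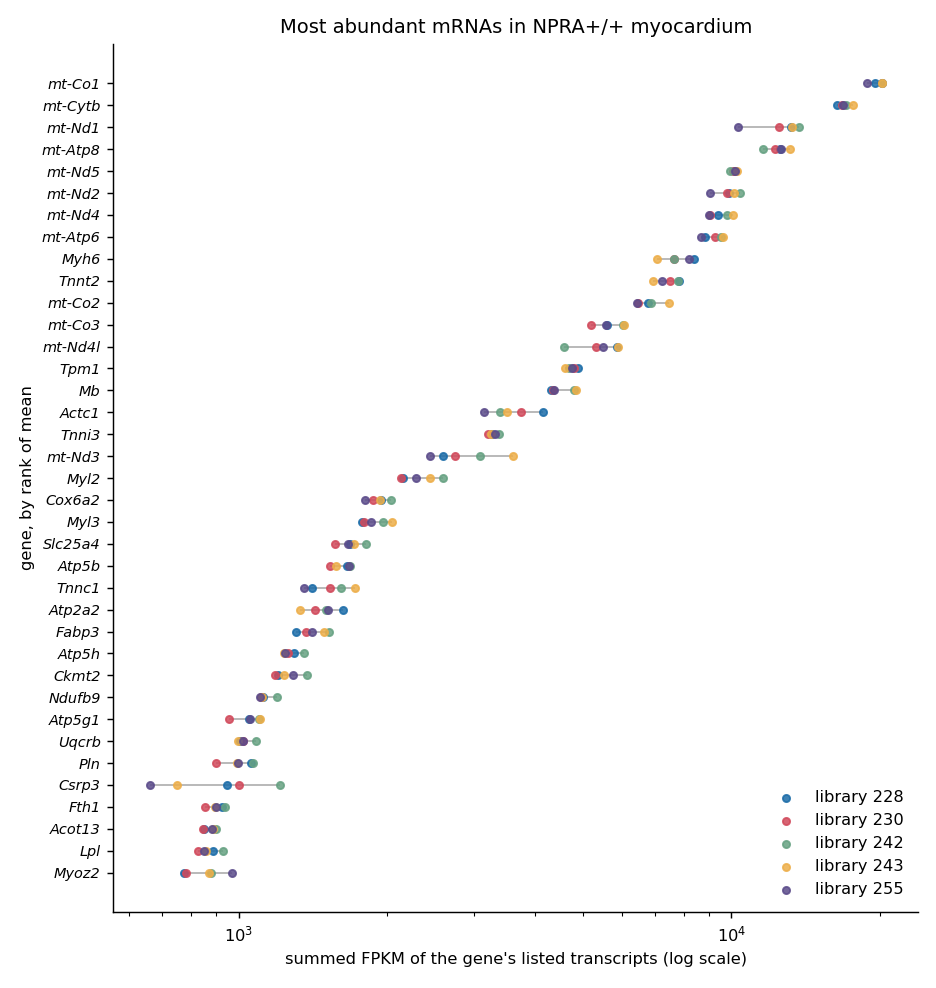
Summed FPKM (log axis) of the 37 genes with the highest mean, by rank, with 1 point per NPRA+/+ library and a grey line over their range. The 12 mitochondrially encoded mRNAs of the plot lie between 2443 and 20196 FPKM and the nuclear genes begin with Myh6 and Tnnt2, and Csrp3 shows the widest range.

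The profile was steep. The most abundant gene held 4.53% ± 0.107 of the sum, the first 10 held 26.5% ± 0.428, and the first 100 held 49.6% ± 0.728. It took 104.8 ± 7.16 genes to reach 50% of the sum and 3135 ± 79.4 to reach 90%. Among nuclear genes alone, the first 10 held 12.4% ± 0.342 and 340 ± 15.1 genes reached 50%. Means of at least 1000 FPKM were reached by 32 genes, at least 100 by 523, at least 10 by 4419 and at least 1 by 10639. The leading nuclear genes were short: the median annotated length of the main transcript was 929 bases for the first 25 and 2862 for all 11714 matched nuclear genes, with a median of 6 and 8 exons.

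FPKM counts messengers, and weighting each transcript by its length gives the share of RNA bases instead. By bases Myh6 rose to second place with 3.67% ± 0.183, behind mt-Co1 at 3.75% ± 0.104. Ttn, the giant spring that runs from Z-disc to M-band, was at 103 ± 11.2 FPKM and ranked 505 by FPKM but ninth by bases, with 0.857% ± 0.0786. The calcium pump Atp2a2 moved from rank 25 to 11, and Ryr2, the calcium release channel, from 393 to 29.

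Genes were placed in 27 non-overlapping functional classes, which took in 1089 genes. The remaining 10688 genes held 32.6% ± 0.689 of the sum. After the mitochondrial messengers came the 87 nuclear genes of the respiratory chain and ATP synthase with 8.22% ± 0.221, and the 28 contractile genes of the sarcomere with 8.16% ± 0.223. These 2 shares overlapped, the first being higher in 3 of 5 libraries, whereas both exceeded the 3.92% ± 0.0597 of the cytosolic ribosomal proteins in all 5. By bases the sarcomere class held 9.21% ± 0.302 and the nuclear respiratory chain 4.03% ± 0.122, and the mitochondrial messengers 15.3% ± 0.475.

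Within oxidative metabolism, 86 of the 87 respiratory chain genes had a mean of at least 10 FPKM. Atp5h, a stalk subunit of ATP synthase, was at 1278 ± 49.4 FPKM and Ndufb9, a complex I subunit, at 1128 ± 37.4. Ndufa10, another complex I subunit, had a CV of 1.5%. Fatty acid uptake and oxidation held 2.31% ± 0.121, led by Fabp3, the heart fatty acid binding protein, at 1418 ± 87.1 FPKM. Lpl, which frees fatty acids from circulating triglyceride, stood at 870 ± 39.1 FPKM, and the fatty acid transporter Cd36 at 543 ± 36.9. Energy transfer and oxygen storage held 2.18% ± 0.0721, of which Mb was 47.5%, with Ckmt2, the mitochondrial creatine kinase, at 1257 ± 77.6 FPKM. The citric acid cycle held 1.60% ± 0.0576, led by Mdh2 at 689 ± 29.5 FPKM, and glycolysis with glycogen 1.17% ± 0.0165, led by Pgam2, the muscle phosphoglycerate mutase, at 811 ± 52.3. Oxidation of ketones and branched-chain amino acids held 0.318% ± 0.00999, with Oxct1, the ketone-activating enzyme, at 434 ± 19.8 FPKM.

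Among the other classes of contraction and excitation, Z-disc, costamere and intercalated disc genes held 2.39% ± 0.141, calcium handling 1.33% ± 0.0502, and membrane channels and pumps 0.297% ± 0.0140. Atp2a2 stood at 1482 ± 109 FPKM, its inhibitor Pln at 1002 ± 67.8, and Hrc, a calcium-binding protein of the reticulum, at 846 ± 49.0. Ryr2 stood at 132 ± 11.5 FPKM and Slc8a1, the sodium-calcium exchanger, at 56.0 ± 6.47. The beta myosin heavy chain Myh7, the main myosin of the foetal mouse ventricle, stood at 188 ± 41.3 FPKM, against 7781 ± 523 for Myh6. Among 27 cardiac transcription factors Hopx led at 167 ± 14.8 FPKM, Nkx2-5 stood at 32.8 ± 2.54, Gata4 at 26.6 ± 3.69 and Tbx5 at 13.6 ± 1.74.

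Of the protein synthesis and turnover classes, the share of translation factors had a CV of 1.39%, cytosolic ribosomal proteins 1.53%, ubiquitin and proteasome genes 1.92%, and cytosolic and ER chaperones 7.83%. In the ribosomal class Rps27 stood at 553 ± 38.4 FPKM and Rps6 at 490 ± 23.9, and ribosomal protein genes have many processed pseudogenes, so single values are uncertain. Genes of the other cell types held small shares. Extracellular matrix held 0.618% ± 0.0668, immune cells and antigen presentation 0.271% ± 0.0328, globins and erythroid genes 0.243% ± 0.0618, endothelial genes 0.235% ± 0.00424, smooth muscle and pericyte genes 0.129% ± 0.0225 and adipocyte genes 0.0111% ± 0.00420. Fabp4 and Cd36, most of the endothelial marker sum above, were counted with fatty acid uptake and not in the endothelial class. The place of the endothelial share among these classes depends on that choice. The endothelial share as a sum was steady (CV 1.80%), while the natriuretic peptide, adipocyte, erythroid and smooth muscle shares had CVs of 39.98%, 37.7%, 25.4% and 17.5%. Single endothelial genes varied more than their sum, with a median CV of 11.7% over those with a mean of at least 10 FPKM.

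**Figure D2:**
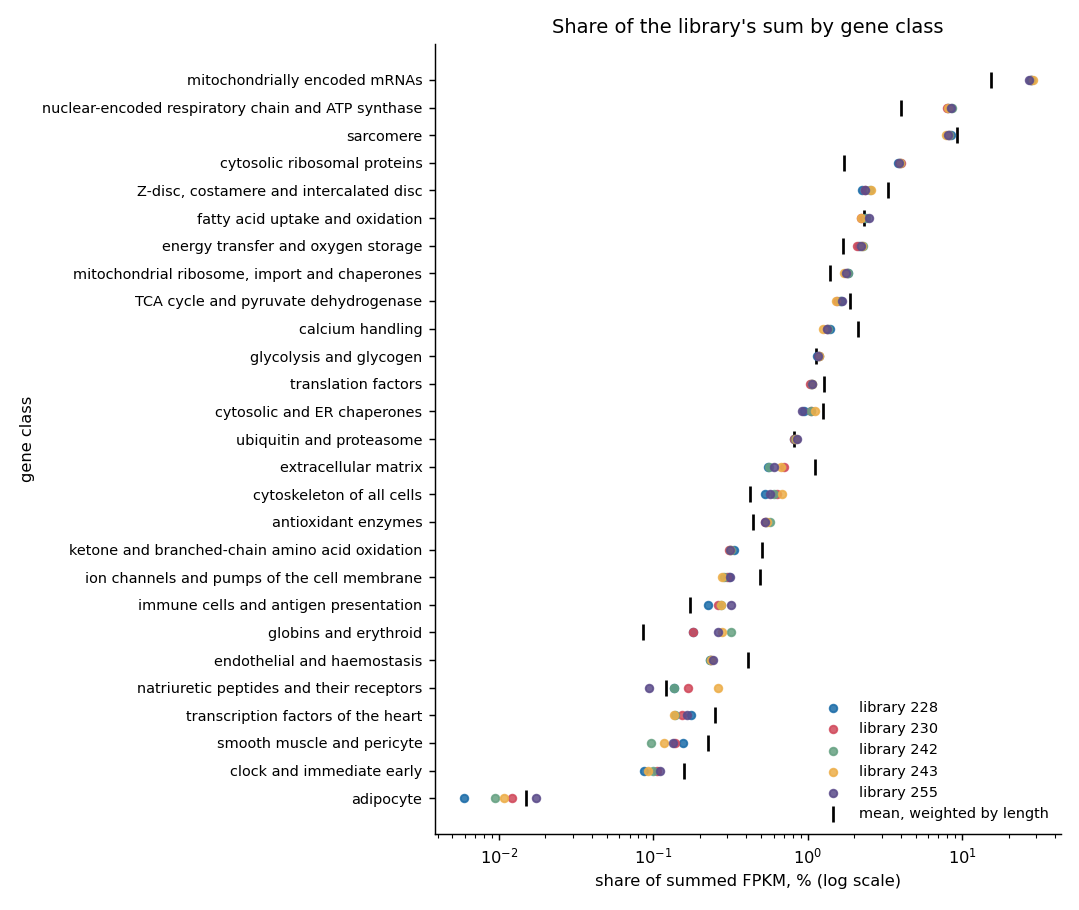
Share of each library's summed FPKM (log axis, %) for 27 gene classes, 1 point per NPRA+/+ library; the black tick is the mean share after weighting by transcript length. Mitochondrially encoded mRNAs lead with 26.8% to 28.6%, and the points spread most in the adipocyte and natriuretic peptide classes.

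The natriuretic system, the pathway of the deleted receptor, was led by its ligands. Nppa, atrial natriuretic peptide, was at 323, 448, 353, 804 and 236 FPKM. Nppb, B-type natriuretic peptide, was at 151, 171, 136, 269 and 51.7 FPKM. Both were highest in library 243 and lowest in 255. Corin and Furin, the proteases that mature the peptides, were at 52.6 ± 6.36 and 18.1 ± 1.54 FPKM. Npr2, the receptor of C-type natriuretic peptide, stood at 12.03, 8.70, 16.8, 11.3 and 16.3 FPKM. The clearance receptor Npr3 was at 4.73 ± 0.989 FPKM, next to Npr1 at 4.68 ± 0.301. The ranges of Npr1 and Npr3 overlapped.

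Isoforms were described for 5297 genes that had at least 2 listed transcripts and a mean of at least 1 FPKM. The same transcript was largest in all 5 libraries in 3035 of them (57.3%), and in 1942 of 2698 (72.0%) of those with a mean of at least 10. The dominant transcript held a median of 70.5% of its gene (quartiles 55.1% and 86.4%), and at least 90% in 1004 genes. The share of genes with 1 constant leader fell with the number of listed transcripts, from 63.9% at 2 transcripts to 45.0% at 4 or more. The leader changed in 2262 genes, of which 353 had only 1 coding sequence among their transcripts. Of the other 1909, 228 kept the same coding sequence in the lead. In the 1906 genes with exactly 2 leaders, 1 library stood apart in 1050, and each of the 10 possible pairs of libraries stood apart in 3.62% to 5.72%.

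Several contractile genes had a constant main isoform. Tpm1-205 held 78.2% of Tpm1 (75.7% to 80.1%), although 16 transcripts were listed. Mybpc3-201, of the myosin-binding protein that tunes cross-bridges, held 80.4%, Myom1-203 of the M-band 90.5%, and Tnni3-201 96.8%. Atp2a2-202 held 97.9% of the calcium pump gene, and Actc1-201 99.9% of cardiac actin. Slc25a3-206, of the phosphate carrier, held 91.0%, and Pkm-202 held 70.1% of the pyruvate kinase gene.

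Other genes changed leader. Ttn-201 (coding length 80658 bases) held 33.7%, 68.8%, 25.7%, 60.5% and 24.1% of Ttn, and Ttn-204 (100401 bases) held 37.5%, 4.11%, 42.2%, 8.37% and 45.9%. The shorter of these forms led in libraries 230 and 243, and the longer in the other 3. The gene's total had a CV of 10.9%, against a median of 6.23% over genes with a mean of 100 to 500 FPKM. Nrap-203 held 86.0%, 35.9%, 87.7%, 24.7% and 34.1% of Nrap, a scaffold of forming myofibrils, and Nrap-202 was the largest in libraries 243 and 255 with 52.4% and 36.1%. Gapdh-203 held over 98% of Gapdh in libraries 228, 242 and 255 and 23.8% and 24.6% in 230 and 243, where Gapdh-201 held 75.4% and 74.8%, and both forms carry the same coding sequence. Tnnt2-206 was the largest of 12 troponin T transcripts in 4 libraries with 29.4% to 33.5%, and Tnnt2-211 in library 243 with 36.7%, though the same coding sequence led in all 5 once transcripts that share one were added up. Bin1, which shapes the T-tubules, was almost wholly Bin1-202 in libraries 228, 230 and 255 (92.3% to 99.3%) and wholly Bin1-201 in 242 and 243, at a gene mean of 5.27 FPKM. Of 50 genes with known splice forms or splicing roles, 47 had at least 2 listed transcripts, and of these 30 had a constant leader. Isoforms of such length and overlap are estimated from shared reads, and the part of that estimate in these changes was not tested.

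The sum of a gene also depends on incomplete annotated transcripts. Myh6-207, an annotated fragment of 542 bases, held 39.99% of the Myh6 sum (36.0% to 47.0%), beside 37.5% for the full-length Myh6-201 and 22.4% for Myh6-205. Without incomplete coding sequences, Myh6 stood at 4649 ± 265 FPKM and ranked 14, and Tnnt2 at 7348 ± 370. Over the whole table such transcripts held 2.98% ± 0.145 of the sum.

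**Figure D3:**
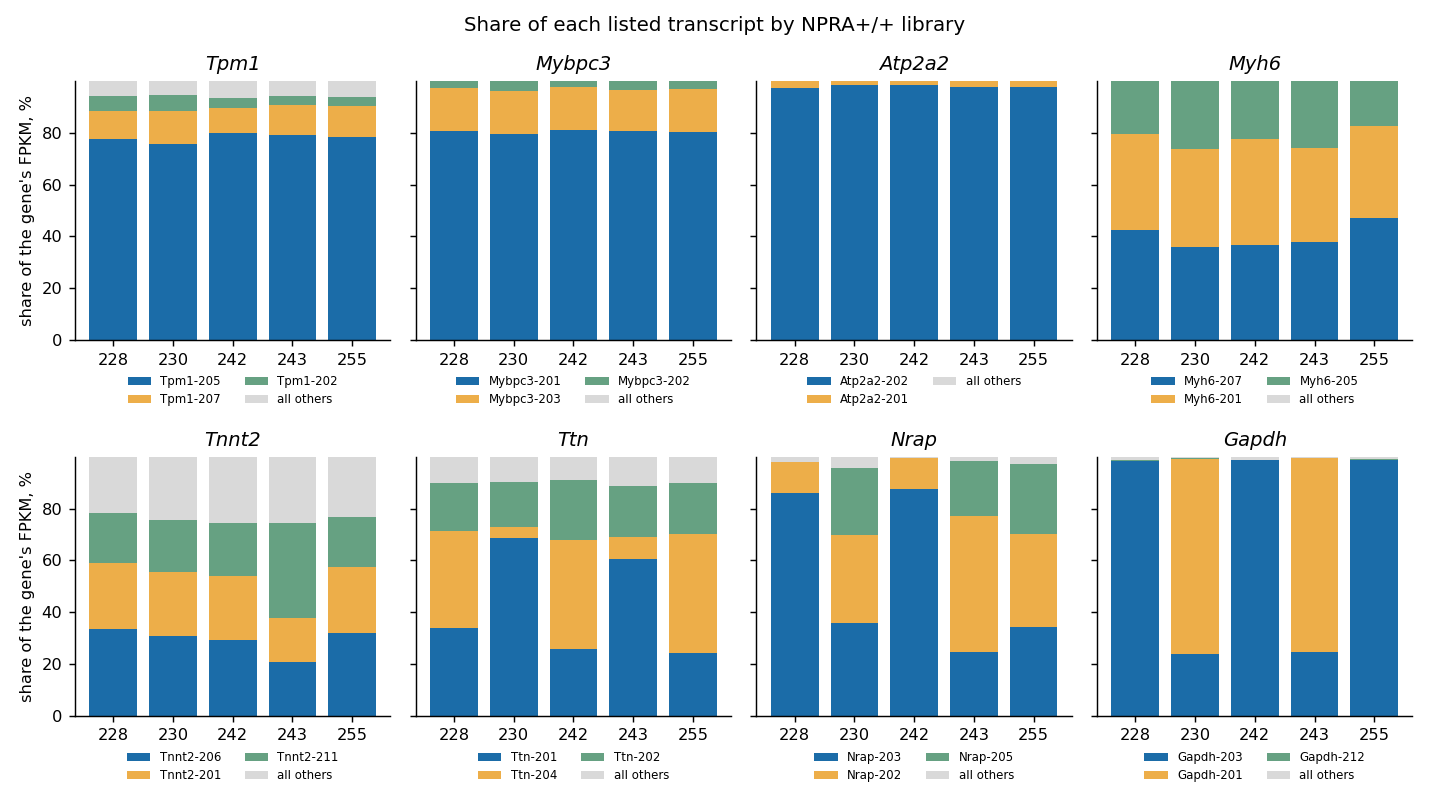
Share of the gene's summed FPKM (%) held by its 3 most abundant listed transcripts (blue, orange, green) and all others (grey), by NPRA+/+ library, for 8 genes. Tpm1, Mybpc3 and Atp2a2 keep 1 main form in all 5 libraries, and Ttn, Nrap and Gapdh change theirs.

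The spread between libraries was measured as the CV over the 4419 genes with a mean of at least 10 FPKM. Its median was 8.90% (quartiles 5.86% and 14.0%), 769 genes were under 5% and 51 (1.15%) over 50%. The median fell from 10.6% at 10 to 20 FPKM to 5.64% above 500 FPKM, and rose from 7.80% for genes with 1 listed transcript to 10.7% for genes with 4 or more. In the 5 NPRA-/- libraries, which the ranking did not use, the median CV was 9.14%. Across 4244 genes measured in both sets, Spearman's rho of the 2 CVs was 0.52, given as a description because genes are not independent and both sets share the processing. Of the 425 genes in the top 10% by CV here, 51.1% were in the top 10% there, and of the 424 in the bottom 10%, 20.3% were in the bottom 10% there.

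**Figure D4:**
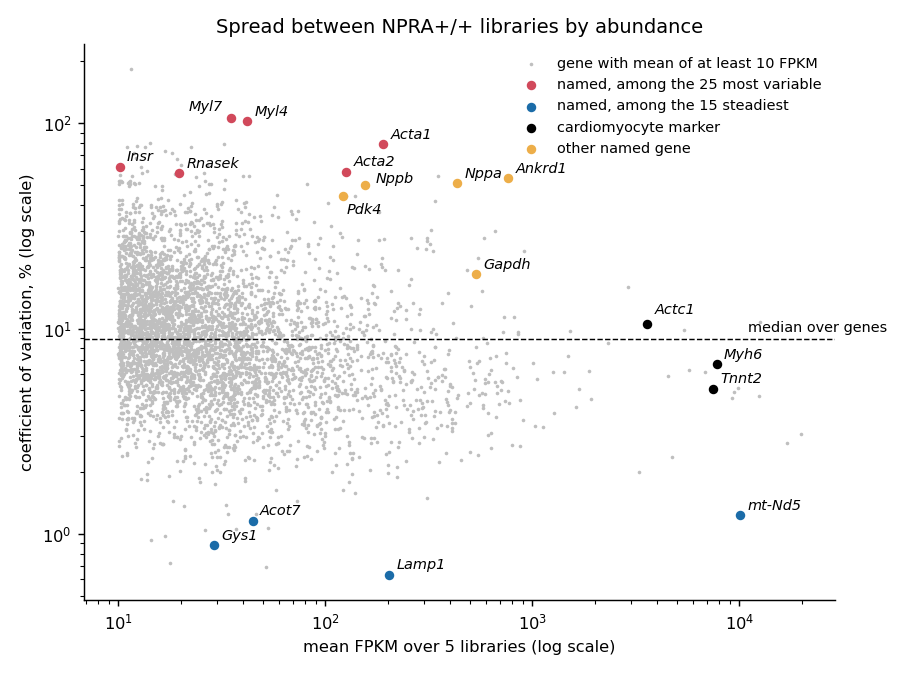
Coefficient of variation over the 5 NPRA+/+ libraries (%, log axis) against mean FPKM (log axis) for 4419 genes with a mean of at least 10 FPKM; the dashed line is the median of 8.90%. Myl7 and Myl4 lie at 106% and 103%, the cardiomyocyte markers Tnnt2, Myh6 and Actc1 at 5.10%, 6.72% and 10.5%, and Lamp1 at 0.632%.

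The 15 steadiest genes had CVs of 0.632% to 1.38%, and the next gene had 1.45%. Membership depended on scaling and on single libraries: 5 of the 15 were among the 15 steadiest at the same sum per library, 7 after median-of-ratios scaling, and 5 to 8 without 1 library. Lamp1, a lysosomal membrane protein, stood at 205, 202, 202, 203 and 204 FPKM, and its relative Lamp2 at 53.4, 52.3, 52.9, 52.8 and 51.9. Gys1, muscle glycogen synthase, stood at 28.9, 28.7, 29.4, 29.0 and 29.0 FPKM. The list went on with Plpp1, Plekhb2, Cebpz, the deubiquitinase Usp8, Rps19bp1, Ecpas, the acyl-CoA thioesterase Acot7, mt-Nd5, the proteasome ATPase Psmc6, Rnf130, Dnajc15 and Smim20. Of the 15, 1 was in the bottom 10% by CV in the NPRA-/- libraries, where their CVs ran from 1.58% to 25.1%. Leaving out 1 library moved a CV of this list by up to 2.19 times, for Rnf130 without library 228.

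The 25 most variable named genes had CVs of 55.5% to 106%. The list left out 77 genes with a provisional symbol or no match, to which the highest CV of all 4419 genes, 183%, belonged. In the NPRA-/- libraries 22 of them had a mean of at least 10 FPKM, and 20 of these 22 were in the top 10% by CV there. The list was led by atrial genes. Myl7, the atrial regulatory light chain, was at 0.586, 75.4, 73.2, 26.9 and 0 FPKM, and Myl4, the atrial essential light chain, at 6.39, 88.9, 86.8, 25.7 and 1.59. Below the 10 FPKM limit, Sln, sarcolipin, an atrial inhibitor of the calcium pump, was at 0.403, 10.2, 12.6, 3.19 and 0 FPKM. Dkk3, a secreted relative of Wnt inhibitors, also below that limit, was at 3.62, 16.7, 11.2, 9.34 and 0.924 FPKM. Libraries 230, 242 and 243 were thus high and 228 and 255 low in all 4. The 9 listed of 10 atrial markers, which include Nppa, summed to 490, 842, 738, 1099 and 412 FPKM, while the 5 ventricular markers summed to 4117 to 4759. Nppa alone, at 323, 448, 353, 804 and 236 FPKM, was a large part of each atrial sum. It was highest in library 243, where Myl7, Myl4, Sln and Dkk3 were lower than in libraries 230 and 242. The part of atrial tissue in these values was not tested.

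A further group was put together after its values were seen, because its genes were highest in library 243. Of the 346 genes with a CV over 25%, the widest gap set library 243 alone apart in 53 (15.3%). Library 255 stood alone in as many. Ankrd1, a stretch-responsive ankyrin repeat protein of the I-band, was at 429, 706, 785, 1451 and 461 FPKM. Acta1, skeletal actin, expressed with Actc1 in the foetal and loaded heart, was at 103, 228, 98.9, 440 and 84.3 FPKM. Nppa and Nppb, given above, shared the high library. Without library 243 the CVs fell from 53.8% to 29.7% for Ankrd1, from 79.0% to 51.8% for Acta1 and from 51.1% to 25.7% for Nppa, and without library 255 that of Nppb fell to 32.9%. In the NPRA-/- libraries the CVs of Ankrd1, Acta1, Nppa and Nppb were 15.9%, 25.4%, 14.4% and 10.6%. The 4 listed of 10 skeletal muscle markers, which include Acta1 and Ckm, summed to 427, 533, 442, 803 and 439 FPKM. Without Acta1 the other 3 summed to 324, 306, 343, 363 and 355 FPKM, and Myh1, Myh2 and Myh4 were not among the transcripts analysed here. The part of skeletal muscle in these values was not tested. Hspb6, a small heat shock protein of muscle, was high in libraries 230 and 243, at 220, 516, 219, 598 and 189 FPKM, and its CV was 41.2% in the NPRA-/- set.

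The promoters of Myl7 and of 4 genes that were highest in library 243 are shown in the same way. The order of the other 4 libraries was not the same in all 4 genes.
Myl7, chr11:5898733-5899032, minus strand: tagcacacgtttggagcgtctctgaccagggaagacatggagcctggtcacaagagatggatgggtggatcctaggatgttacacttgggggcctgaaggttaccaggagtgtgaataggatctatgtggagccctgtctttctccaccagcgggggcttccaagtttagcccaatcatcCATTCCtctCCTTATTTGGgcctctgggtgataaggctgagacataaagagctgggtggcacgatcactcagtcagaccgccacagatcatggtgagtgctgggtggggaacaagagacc
Acta1, chr8:123894726-123895025, minus strand: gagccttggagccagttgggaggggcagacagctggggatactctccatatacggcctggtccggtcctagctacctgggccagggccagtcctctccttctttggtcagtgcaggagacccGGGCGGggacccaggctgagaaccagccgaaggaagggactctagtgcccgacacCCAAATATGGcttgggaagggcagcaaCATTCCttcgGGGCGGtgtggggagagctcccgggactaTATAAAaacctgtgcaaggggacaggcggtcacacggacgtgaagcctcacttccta
Ankrd1, chr19:36119795-36120094, minus strand: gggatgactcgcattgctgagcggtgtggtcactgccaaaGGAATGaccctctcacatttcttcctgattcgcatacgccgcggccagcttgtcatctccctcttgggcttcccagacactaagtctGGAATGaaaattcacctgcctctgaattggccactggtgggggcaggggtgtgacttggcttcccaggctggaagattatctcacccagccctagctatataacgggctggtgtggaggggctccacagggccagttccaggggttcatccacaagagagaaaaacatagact
Nppa, chr4:148000472-148000771, plus strand: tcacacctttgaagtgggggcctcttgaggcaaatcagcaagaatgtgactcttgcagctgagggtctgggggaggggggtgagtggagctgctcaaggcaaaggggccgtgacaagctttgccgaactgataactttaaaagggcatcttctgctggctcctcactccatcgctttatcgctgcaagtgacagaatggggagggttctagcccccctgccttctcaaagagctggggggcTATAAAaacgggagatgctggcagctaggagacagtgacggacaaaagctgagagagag
Nppb, chr4:147985650-147985949, plus strand: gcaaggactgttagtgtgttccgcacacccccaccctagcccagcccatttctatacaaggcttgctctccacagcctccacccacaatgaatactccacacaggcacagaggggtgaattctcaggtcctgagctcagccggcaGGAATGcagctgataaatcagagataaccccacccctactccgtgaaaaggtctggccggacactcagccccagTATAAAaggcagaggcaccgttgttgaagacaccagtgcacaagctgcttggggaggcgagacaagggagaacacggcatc
A CArG box was present in the Myl7 and Acta1 windows and not in those of Ankrd1, Nppa and Nppb. CATTCC was present in all but the Nppa window, with 2 matches in that of Ankrd1. TATAAA was present in the Acta1, Nppa and Nppb windows, and GGGCGG in that of Acta1, with 2 matches. No MEF2 site was found in the 7 windows. The RefSeq and listed starts differed by 0 bases for Myl7 and Nppa, 24 for Acta1, 66 for Ankrd1 and 112 for Nppb. The nearest window of Myl4 started 26618 bases from Myl4-202 and is not shown.

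Genes of other cell types were also among the variable ones. Acta2, smooth muscle actin, was at 240, 133, 47.5, 79.0 and 132 FPKM, highest in library 228, whereas the pericyte gene Rgs5 was steady at 231 ± 13.2 FPKM and Myh11, smooth muscle myosin, at 23.0 ± 3.19. Ifi27, an interferon-induced gene, was at 11.7, 14.5, 23.6, 37.9 and 74.6 FPKM, and Iigp1, an interferon-induced GTPase, at 12.6, 13.6, 35.4, 21.0 and 46.9. B2m, the light chain of MHC class I, was at 245, 289, 320, 349 and 454 FPKM, and H2-K1, a heavy chain, at 39.5, 46.8, 54.8, 61.8 and 92.7. All 4 were highest in library 255 and lowest in 228. The macrophage marker sum, at 251, 267, 280, 270 and 287 FPKM, was also lowest in 228 and highest in 255, over a narrower relative range. Scd1, a fatty acid desaturase of lipid synthesis, was at 6.25, 11.95, 6.66, 6.71 and 19.5 FPKM. Ucp1, the uncoupling protein of brown fat, was at 5.89 FPKM in library 255 and at most 0.0904 in the others. The 4 listed of 5 brown adipocyte markers, which include Ucp1, summed to 80.1, 71.4, 53.3, 62.9 and 73.4 FPKM. Most of that sum was Ppargc1a, at 64.0, 47.2, 30.9, 37.7 and 41.7 FPKM. The sum therefore cannot show whether the list followed Ucp1. Cidea, another member, was at 15.6, 22.1, 21.6, 24.1 and 25.3 FPKM, highest in library 255. Adipoq, adiponectin, was at 0.234, 1.70, 1.25, 1.23 and 2.22 FPKM. The globins were higher in libraries 242, 243 and 255, with Hbb-bs at 229, 211, 409, 363 and 331 FPKM. The alpha globin copies Hba-a1 and Hba-a2 are nearly identical and cannot be separated with certainty. The part of other tissue or blood in these values was not tested.

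**Figure D5:**
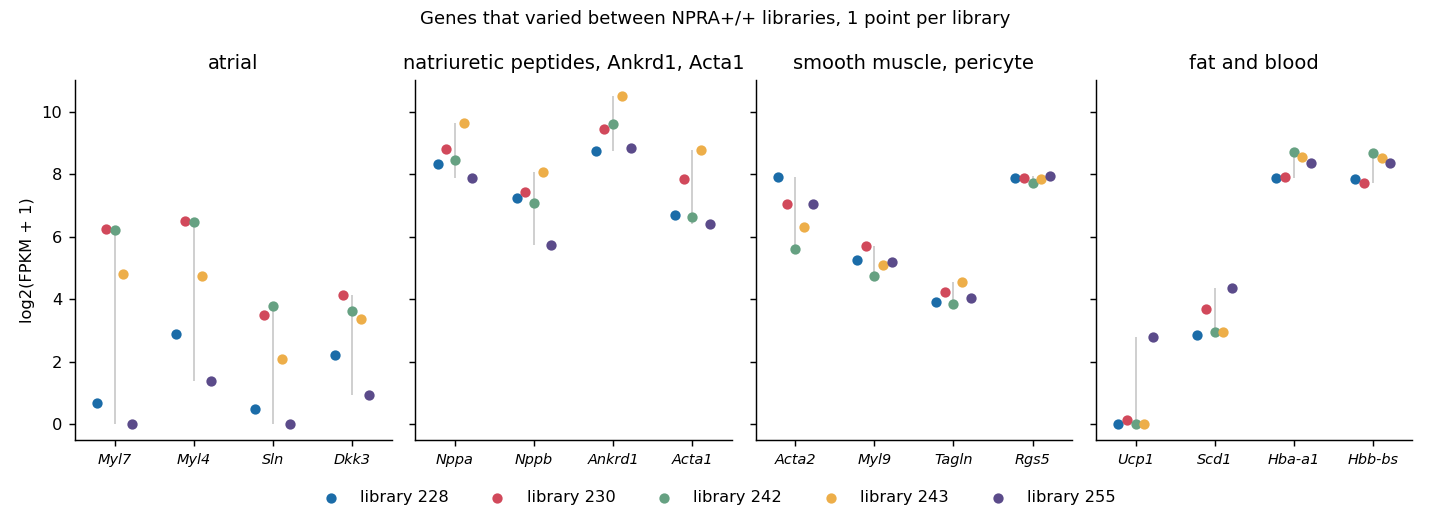
Level as log2(FPKM + 1) of 16 genes in 4 groups, 1 coloured point per NPRA+/+ library. Myl7, Myl4, Sln and Dkk3 are high in libraries 230, 242 and 243, Nppa, Nppb, Ankrd1 and Acta1 peak in 243, Acta2 is highest in 228, and Ucp1 stands above 0.0904 FPKM only in 255.

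Several genes above 100 FPKM varied through single libraries. Pdk4, the kinase that shuts pyruvate out of oxidation, was at 85.9, 97.8, 105, 103 and 217 FPKM, and its CV of 44.1% fell to 8.89% without library 255. Tcap, the titin cap of the Z-disc, was at 488, 537, 647, 632 and 989 FPKM, and its CV of 29.8% fell to 13.2% without the same library. Immt, an organiser of mitochondrial cristae, was at 223 FPKM in library 228 and 92.5 to 113 in the others, and its CV of 44.3% fell to 9.996% without 228. Apoe, the lipoprotein component, was at 159, 319, 366, 414 and 363 FPKM, and its CV of 30.2% fell to 10.6% without 228. Other variable genes above 100 FPKM were Capns1 (44.4%), Fblim1 (40.7%, and 20.8% without library 243) and Hsp90aa1 (31.4%).

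The rest of the variable list held genes of lower level, between 10.2 and 40.2 FPKM on average. Insr, the insulin receptor, was at 21.3 FPKM in library 243 and 6.90 to 7.98 in the others, and its CV of 61.3% fell to 6.45% without that library. Rnasek was at 39.7 FPKM in library 242 and 13.6 to 15.5 in the others, with 5.79% without it. Gpsm1 was at 1.69 FPKM in library 243 and 42.5 to 56.7 in the others, with 13.5% without it. Golga2, a Golgi tether, and Trmt2b, a tRNA methyltransferase, were low in libraries 230 and 243, at 8.20 and 8.64 and at 4.04 and 4.40 FPKM, against 38.0 to 41.2 and 17.6 to 19.2 in the others. Trmt2b-203 was listed at 0 in those 2 libraries. Tead1, a factor that binds the MCAT element, was at 24.6, 8.46, 7.07, 8.45 and 20.5 FPKM. Without their highest library, 6 of the 25 (Hypk, Insr, Mettl5, Prg4, Scd1 and Slc47a1) had a mean under the 10 FPKM limit, so the value that made them variable also brought them into the ranking. The list was completed by Hypk, Prg4, Slc47a1, Il15, Abcd3, Mrpl53, Vps25, Mettl5, Pak1ip1, Ctdsp1, Sypl and Dhrs3. Leaving out 1 library moved the CV by over 1.5 times for Prg4 and Slc47a1 (46.2% and 48.9% without 230), Pak1ip1 (44.0% without 243) and Scd1 (34.4% without 255). When each gene was represented by its largest listed transcript alone, 7 of the 25 were among the 25 most variable.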

How the data were processed

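RNA of mouse myocardium was poly(A)-selected, made into strand-specific libraries and read on an Illumina instrument, per the labels' protocols. The submitters' processing notes name the tools cutadapt, HISAT2 and StringTie and the build mm10, without versions or settings. The deposited values, 1 for each transcript in each library, were taken as FPKM computed by the authors, although the table names no unit and StringTie also writes TPM. Low values showed no whole-read steps (at most 21.8% of 400 low values per library fell within 0.05 of a whole multiple), so the depth is unknown and only the spread between libraries gives precision.

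Transcripts were matched to GENCODE vM21 (22107 of 22157, 21011 with the same version) and FPKM summed per gene symbol. Of the symbols, 10 join several gene identifiers. Classes were filled in order, each gene once. A gene's CV was computed at a mean of at least 10 FPKM, and isoform shares at a mean of at least 1. There is 1 group, so no groups were compared; Dixon's limit was used only to find single libraries far from the other 4. Named were the markers, the 13 mitochondrial mRNAs, the first 25 nuclear genes, the first 4 of each class, the 15 steadiest, the 25 most variable, and the 15 most variable above 100 FPKM, without provisional symbols; other genes were chosen after their values were seen, and some that the rule names are not reported here. Members and lists were chosen with earlier results of these data known. Motifs were searched in RefSeq windows of GRCm38.p6. Functions were tested on simulated data. Python 3.11.15, numpy 2.4.6, pandas 2.3.3 and matplotlib 3.10.9 were used. Alternatives were length weighting, filters, scalings, the largest transcript, measures of spread, and leaving out each library; leaving out incomplete coding sequences was chosen after seeing the data.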

Additional observations from a re-analysis of the deposited data

Results flagged for a closer look

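In 6 of 197 gene levels, class shares and library measures examined (3.05%), 1 of the 5 libraries lay so far from the other 4 that its gap exceeded 0.71 of the whole range, Dixon's 95% limit for 5 samples. Chance flags about 1 group in 20, and over all 4419 genes with a mean of at least 10 FPKM 280 (6.34%) passed the same limit. Pdk4 was at 217 FPKM in library 255, against 85.9 to 105 in the others. Immt was at 223 in library 228, against 92.5 to 113. Insr was at 21.3 in library 243, against 6.90 to 7.98, and Gpsm1 at 1.69 in the same library, against 42.5 to 56.7. Rnasek was at 39.7 in library 242, against 13.6 to 15.5, and Ndufb9 at 1194, against 1102 to 1120. Ndufb9 had 1 listed transcript, so its transcript and gene values are the same. In Pdk4, Insr and Rnasek the main transcript held most of the gene's mean (121 of 122, 9.17 of 10.2 and 18.8 of 19.7 FPKM). Its value was therefore largely the gene's own, with Pdk4-201 at 216 FPKM in library 255 and Insr-201 at 20.1 in 243. Immt-206, the largest of 8 listed Immt transcripts, was at 122 FPKM in library 228, against 42.2 to 69.6 in the others. In Gpsm1 all 3 listed transcripts were under 1 FPKM in library 243, Gpsm1-204 being listed at 0. The cause of these values was not tested.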

How the results depend on the processing

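Weighting by transcript length moved the share of mitochondrially encoded mRNAs from 27.8% to 15.3%, nuclear respiratory chain genes from 8.22% to 4.03%, sarcomere genes from 8.16% to 9.21%, cytosolic ribosomal proteins from 3.92% to 1.70% and the first 10 genes from 26.5% to 19.0%, and the genes that hold 50% from 104.8 to 348.2. Without mitochondrially encoded mRNAs in the sum the shares were 11.4% (respiratory chain), 11.3% (sarcomere), 5.43% (ribosomal) and 12.4% (first 10 genes), and 340.2 genes held 50%. Transcripts with a complete coding sequence, an alternative chosen after seeing the data, gave 28.7% (mitochondrial), 7.50% (sarcomere), 4.02% (ribosomal) and 27.0% (first 10 genes). A constant largest transcript was found in 1942 genes at a mean of at least 10 FPKM, where fewer genes were examined, in place of 3035. Of the 15 steadiest genes, 5 were shared with the 15 steadiest at the same sum per library, 7 after median-of-ratios scaling, 8 with the largest transcript, and 5 to 8 without 1 library. Of the 25 most variable, 7 were shared with the largest transcript and 14 to 19 without 1 library; the cause was not tested. The median CV was 8.46% to 13.1% under every alternative except a mean of at least 50 FPKM, where it was 6.53%. No paired analysis was possible because there is 1 group and no comparison between groups. The unknown depth limits low values, and 3721 transcripts were listed at 0 in at least 1 library.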

Other observations

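Genes often used as qPCR references, a list chosen after the data were seen, differed in spread. All 18 were listed, and 10 lay under the median CV of 8.90%. Rpl32, a ribosomal protein, stood at 355 ± 7.98 FPKM (CV 2.25%) and Hprt, of purine salvage, at 45.2 ± 1.03 (2.28%), while Rplp0 and Ppia had CVs of 3.61% and 3.90%. Gapdh (18.4%), Actb (19.0%) and B2m (23.7%) were among the more variable, and Tfrc, the transferrin receptor, was at 35.2, 38.2, 16.3, 19.9 and 22.9 FPKM (36.3%). Gapdh was at 464, 626, 477, 655 and 449 FPKM, highest in libraries 230 and 243, where Gapdh-201 was its largest transcript in place of Gapdh-203. The part of the isoform estimate in the spread of Gapdh was not tested. Tbp stood at 2.10, 3.28, 6.42, 3.46 and 7.04 FPKM, and Gusb at 4.91 ± 1.61.

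Clock-controlled genes also differed between libraries. Dbp, an output gene of the circadian clock, was at 18.7, 17.8, 28.5, 35.3 and 36.8 FPKM, and Nr1d1, a repressor of the clock's feedback loop, at 22.5, 20.6, 18.5, 24.8 and 43.1. Per2 and Per3 were steadier, at CVs of 7.39% and 6.27%. The sources used here give no time of tissue collection.

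By chromosome, the mitochondrial genome held 27.8% of the summed FPKM, chromosome 7 held 6.01% with 877 genes, chromosome 11 held 5.71% with 987, and X held 1.48% with 364. The autosomal shares had SDs of at most 0.140 percentage points.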
